A study of Mus musculus with 6 samples.

Results

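T cells in which exactly 1 productive alpha chain and exactly 1 productive beta chain were found numbered 1820 of 3263 T cells in the spleen of a wild-type C57BL/6JRj mouse (WT) and 2551 of 4573 in the spleen of a heterozygous 564Igi mouse, 4371 of 7836 in all. They are the cells in which 1 pair of chains was read. Whether a further chain was present but not read was not tested. A T cell was a droplet barcode called a cell in the T cell V(D)J table of a mouse and not in its B cell V(D)J table. A chain was a distinct CDR3 nucleotide sequence on a high-confidence, productive contig with at least 2 unique molecular identifiers (UMIs, tags that count RNA molecules). 564Igi animals (alleles Igktm1(Igk564)Tik and Ightm1(Igh564)Tik, strain background B6.129S4(Cg)) carry rearranged heavy and kappa light chain genes of an autoreactive antibody, and their T cell receptor loci are not the targeted genes. Each group was 1 mouse, its age and sex are not given in the labels, and no value below could be set against the spread between animals. Splenocytes were depleted of erythroid cells with a Ter-119 antibody before capture with a 10x Genomics 5′ kit.

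The T cell receptor is a dimer of an alpha and a beta chain. The beta chain is rearranged first, and each T cell progenitor then tries several alpha joins, so that V and J segments of both chains and the bases added at the joints set the complementarity determining region 3 (CDR3), the loop that meets the peptide. Invariant natural killer T (NKT) cells are a lineage with a nearly fixed alpha chain of TRAV11 and TRAJ18, which binds lipids on CD1d, and mucosal-associated invariant T (MAIT) cells use TRAV1 with TRAJ33.

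The share of T cells with 1 alpha and 1 beta was 55.8% (exact 95% interval 54.1 to 57.5) in WT and 55.8% (54.3 to 57.2) in 564Igi. These and all later intervals cover counting error only. The next most frequent make-up was a beta chain with no alpha, in 22.2% of WT and 21.1% of 564Igi T cells. A second alpha beside 1 beta was found in 8.55% and 7.81%, and 2 betas beside 1 alpha in 2.30% and 3.28%. An alpha chain with no beta was found in 3.49% and 3.32%. The order of these 5 classes was the same in both mice.

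The alpha chain was the thinly covered one. Its median was 4 UMIs in each mouse, against 11 for the beta chain, and 19.9% of WT and 19.4% of 564Igi alpha chains stood at exactly 2 UMIs, the minimum. Among cells with 1 beta, the share with exactly 1 alpha rose from 54.7% in WT cells with 2 to 4 beta UMIs to 69.5% in those with 20 or more, and from 59.5% to 71.0% in 564Igi. The share with no alpha fell over the same range from 37.1% to 17.1% in WT and from 32.8% to 16.01% in 564Igi. The share with 2 alphas rose as well, from 8.21% to 13.2% in WT and from 7.34% to 12.4% in 564Igi. Of the cells with a beta only, 34.5% in WT and 36.1% in 564Igi had a productive alpha contig of 1 UMI. The number of cells with 1 alpha and 1 beta thus moved with the UMIs of the beta chain. Sequencing depth, RNA content and capture cannot be told apart in this.

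**Figure D1:**
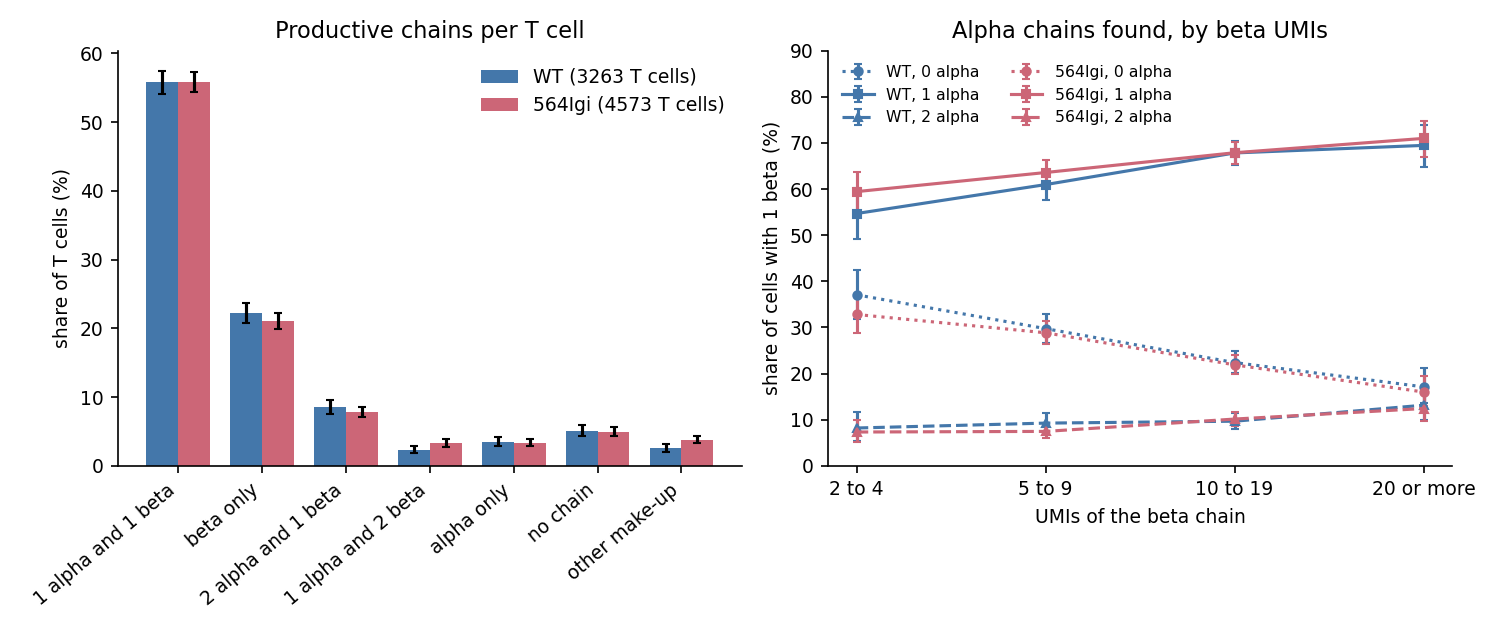
Left, share of T cells (%) by number of productive chains in WT and 564Igi. Right, share (%) of cells with 1 beta in which 0, 1 or 2 alphas were found, by the UMIs of the beta chain. Bars and points carry exact 95% intervals. Both mice stand at 55.8% for 1 alpha and 1 beta, and the share with 1 alpha is higher where the beta chain had more UMIs.

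As a check of the label, TRAC, the alpha constant gene, was named on 99.7% of WT and 99.9% of 564Igi alpha chains, and TRBC1, a beta constant gene, on 99.8% and 99.9% of beta chains. No chain was named TRBC2, although 65.6% and 63.8% of beta chains used a TRBJ2 segment, which lies upstream of TRBC2, so the beta constant name was not used further. No contig of a gamma or delta chain was listed for these cells. Whether these libraries could hold such contigs was not tested, so their absence sets no limit on gamma or delta chains. The gene expression libraries were not used here, so CD4, CD8 and other markers were not read. Contigs of the B cell libraries were also listed under these barcodes. A productive heavy chain (IGH) contig was listed for 2 WT cells (0.110%) and for 462 564Igi cells (18.1%, 16.6 to 19.7), at a median of 3 UMIs in 564Igi, against 18 in its called B cell barcodes. Productive kappa contigs were listed for 2.20% and 3.37%. The part of this in the differences between the mice below was not tested beyond the values given without these barcodes. Of the barcodes, 8 were used in both mice, and 0 of these carried the same clonotype.

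The V genes in use were broadly alike in both mice. TRAV genes were grouped into families, because the alpha locus on chromosome 14 carries near-identical D and N copies that contigs can confuse. The 5 most used families were TRAV6 (14.9% of WT and 14.0% of 564Igi cells), TRAV7 (12.6% and 13.7%), TRAV14 (11.3% and 11.2%), TRAV12 (10.8% and 11.2%) and TRAV13 (7.80% and 8.35%). Among beta genes the name that joins TRBV12-2 and TRBV13-2 led with 8.13% and 9.21%, followed by TRBV3 with 7.69% and 9.02%. TRBV13-1 (6.87% and 6.31%), TRBV1 (6.70% and 6.35%), TRBV5 (6.65% and 6.00%), TRBV13-3 (6.43% and 6.51%) and TRBV19 (6.59% and 6.43%) came next.

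Of 53 TRAV genes with at least 20 cells in either mouse, 1 was at least 1.5-fold higher in 564Igi (1.89% of those compared) and 3 at least 1.5-fold lower (5.66%). The lower ones were TRAV14D-2 at 1.43% in WT and 0.706% in 564Igi, TRAV5-4 at 3.46% and 2.0%, and TRAV8-1 at 1.48% and 0.980%. The higher one was TRAV7D-3 at 0.604% and 1.06%. TRAV5-4 was the only one of these 4 whose exact intervals did not overlap. TRAV5D-4, a D copy in the same family, went the other way, at 0.879% in WT and 1.29% in 564Igi. Whether contigs were confused between these names was not tested. Of 20 TRBV genes, 1 was higher (5%) and 1 lower (5%) by that fold. For TRBV14 the WT share was 1.81% (1.251 to 2.54) and the 564Igi share 2.82% (2.21 to 3.54). For TRBV17 they were 2.91% (2.19 to 3.79) and 1.88% (1.39 to 2.49), and the intervals overlapped for both genes. Without a single WT clonotype of 7 cells, described below, TRBV17 stood at 2.54% in WT and the 564Igi share was 0.742 times that, short of the fold.

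The compound beta name was settled as far as the CDR3 allows. The beginning of the beta CDR3 is encoded by the V gene, and the 12 bases below, the most frequent starts of chains named for 1 of the genes alone, show where TRBV13-2 and TRBV12-2 differ (capitals).
TRBV13-2 start: tgtgccagcGGT
TRBV12-2 start: tgtgccagcTCT
Chains with the compound name carried the first start in 128 of 148 WT cells (86.5%) and 193 of 235 564Igi cells (82.1%), and the second in 0 and 0 cells. Chains named TRBV13-2 alone carried the first start in 85.7% and 77.4%, and chains named TRBV12-2 alone carried the second in 80.6% and 84.3%. The CDR3 starts under the compound name were those of TRBV13-2, at chr6:41121396-41121832 (GRCm38.p6), and not those of TRBV12-2, at chr6:41118864-41119364.

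Alpha and beta V genes were paired close to the product of their margins, the number of cells expected if the family of the alpha and the gene of the beta were drawn independently. With at least 5 cells expected in both mice, 142 of 440 pairs could be compared, from 12 TRAV families and 19 TRBV genes, holding 75.4% of WT and 74.1% of 564Igi cells. In WT, 16 pairs (11.3%) were at least 1.5-fold above the product and 27 (19%) at least 1.5-fold below. In 564Igi, which had more cells per pair, 2 (1.41%) were above and 17 (12%) below. Exact Poisson intervals left out a ratio of 1 for 7 WT pairs (4.93%) and 2 564Igi pairs (1.41%). The ratios ran from 0 to 1.99 in WT and from 0.252 to 1.58 in 564Igi, with medians of 0.962 and 0.983.

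The same pairs seldom stood out in both mice. Over the 142 pairs the ratios of WT and 564Igi had a Pearson r of 0.226 and a Spearman rho of 0.186, as a description across pairs that share genes. A single pair, TRAV4 with TRBV10, was above by 1.5-fold in both mice, with 10 WT cells against 6.11 expected (ratio 1.64, 0.785 to 3.01) and 11 564Igi cells against 7.17 (1.53, 0.766 to 2.75). Its intervals include 1 in each mouse. The highest ratios in WT belonged to TRAV5 with TRBV3 (1.99), TRAV13 with TRBV12-2 (1.96) and TRAV12 with TRBV29 (1.94), which stood at 1.16, 1.41 and 1.12 in 564Igi. The highest in 564Igi were TRAV13 with TRBV26 (1.58), TRAV4 with TRBV10 and TRAV5 with TRBV19 (1.48), of which TRAV13 with TRBV26 stood at 0.722 and TRAV5 with TRBV19 at 0.929 in WT.

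Below the product in both mice were 5 pairs (3.52% of 142), and 2 of them had no compound name. TRAV16 with TRBV13-3 was found in 0 WT cells against 7.01 expected and in 4 564Igi cells against 8.72 (ratio 0.459). TRAV13 with TRBV29 was found in 1 WT cell against 5.23 and in 3 564Igi cells against 7.35. The other 3 joined the compound TRBV name with TRAV8 (2 cells against 5.37 in WT and 2 against 7.92 in 564Igi), TRAV9 (5 against 9.03 and 9 against 15.4) and TRAV4 (6 against 9.51 and 9 against 16.7). None of the 5 had intervals of the ratio that left out 1 in both mice. TRAV16 with TRBV13-3 left it out in WT only (0 to 0.526), and TRAV8 with the compound name in 564Igi only (0.0306 to 0.912). For the rest the intervals include 1 in each mouse. Of the 12 pairs with the compound name, 6 were below 1 in both mice, and 4 without the cells of the NKT alpha chain, which raise the margin of that beta gene. Without those cells TRAV4 with the compound name had a ratio of 0.681 in WT, short of the fold. TRAV7 with TRBV5 (0.453 in WT and 0.654 in 564Igi) was then below by 1.5-fold in both mice. Over all cells, a further 2 pairs went opposite ways by 1.5-fold. TRAV14 with the compound name had 26 WT cells against 16.7 expected and 16 564Igi cells against 26.3, and TRAV3 with TRBV13-1 had 14 against 7.97 and 6 against 9.40.

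**Figure D2:**
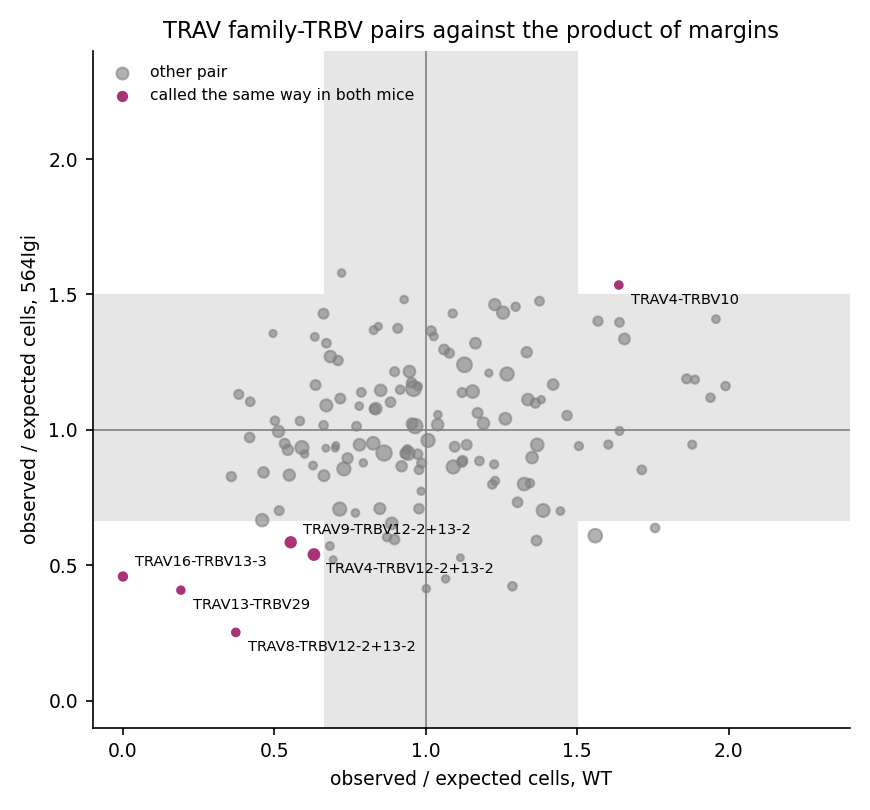
Observed over expected cells for each of 142 TRAV family-TRBV pairs, WT on the x axis and 564Igi on the y axis; the area of a point grows with its expected cells, and the grey bands mark ratios under 1.5-fold from 1. The points form a cloud around 1, with 1 pair above and 5 below the bands in both mice.

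The departure from independent pairing was smaller without the invariant NKT alpha chain. The dispersion of the whole TRAV family by TRBV table (its chi-square statistic over its degrees of freedom, near 1 for independent chains) was 1.60 in WT and 1.61 in 564Igi, among families and genes with at least 20 cells. Without cells of TRAV11 with TRAJ18 it was 1.34 and 1.06. With each clonotype (the same V, J and CDR3 nucleotides in both chains) counted once as well, it was 1.26 and 1.02. Independent chains would give values that scatter around 1 with an SD of 0.0937 in WT and 0.0867 in 564Igi, so the WT table stayed above 1 by more than that scatter in both cases, and the 564Igi table did not. The largest remaining term in WT was TRAV16 with TRBV17, with 11 cells against 3.25 expected, of which 7 were 1 clonotype. In 564Igi it was TRAV17 with TRBV29, with 4 cells against 0.714. Other segment pairs across the chains had dispersions between 1.03 and 1.247 over all cells, with 1.03 and 1.13 for TRAV family with TRBJ, 1.20 and 1.11 for TRAJ with TRBJ, and 1.247 and 1.20 for TRAJ with TRBV. Without the NKT alpha, TRAJ with TRBV stood at 1.18 in WT, above 1 by more than the scatter of 0.0541, and at 1.05 in 564Igi, above 1 by about the scatter there of 0.0526. With each clonotype also counted once, TRAJ with TRBV stood at 1.07 in WT, above 1 by little more than the scatter of 0.0556. That WT table held 35 TRAJ segments in place of 37. In 564Igi the value was 1.02, within the scatter of 0.0526. Within the alpha chain TRAV family and TRAJ were further from independent, at 3.41 and 4.02, or 1.61 and 1.90 without the NKT alpha. Within the beta chain TRBV and TRBJ stood at 1.14 and 1.29.

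TRAV11 with TRAJ18 was found in 27 WT cells (1.48%, 0.980 to 2.15) and 51 564Igi cells (1.999%, 1.49 to 2.62), with overlapping intervals. TRAJ18 (chr14:54200777-54200842, GRCm38.p6) was the segment of 27 of 27 WT and 51 of 52 564Igi chains of TRAV11 (chr14:53519303-53519859). All of these alpha CDR3s were 15 amino acids long, and 25 of 27 and 50 of 51 had the same amino acid sequence. They are shown because this was the only named invariant alpha chain found in these cells. That amino acid sequence was encoded by 4 nucleotide forms, which differ at base 12 of the CDR3 (capital).
NKT alpha, form 1: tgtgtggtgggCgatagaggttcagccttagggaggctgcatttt
NKT alpha, form 2: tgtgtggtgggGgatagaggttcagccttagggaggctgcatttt
NKT alpha, form 3: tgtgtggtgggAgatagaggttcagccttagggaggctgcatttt
NKT alpha, form 4: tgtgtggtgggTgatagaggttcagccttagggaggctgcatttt
The form with C was found in 8 WT and 23 564Igi cells, the form with G in 7 and 13, the form with A in 6 and 6, and the form with T in 4 and 8. In 564Igi the forms with C, G and T were the 3 most frequent alpha chains, and the form with A tied at 6 cells with a TRAV4D-4 alpha. In WT the forms with C and G and the alpha of the clonotype of 7 cells were the 3 most frequent.

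The beta partners of this alpha were all different, 27 distinct beta CDR3s in 27 WT cells and 51 in 51 564Igi cells, but their V genes were unevenly used. TRBV13-2 under either name was used by 15 of 27 WT cells (55.6%, 35.3 to 74.5), against 9.37% of the other WT cells, 5.53 times the product of margins (3.09 to 9.11). In 564Igi it was used by 30 of 51 (58.8%, 44.2 to 72.4), against 10.7%, 5.05 times the product (3.41 to 7.21). TRBV29 was used by 4 WT cells (4.02 times, 1.10 to 10.3) and 8 564Igi cells (4.55 times, 1.96 to 8.96). TRBV13-1, named here after its values were seen, was used by 5 WT cells (2.70 times, 0.875 to 6.29) and 6 564Igi cells (1.86 times, 0.684 to 4.06), with intervals that include 1. TRBV13-3, also named after its values were seen, was used by 2 WT cells (1.15 times, 0.140 to 4.16) and 3 564Igi cells (0.904 times, 0.186 to 2.64). TRBV1, named beforehand with TRBV13-2 and TRBV29, was used by 1 and 3 cells, no more than 0.926 times the product. TRBV13-2, TRBV29 and TRBV1 together took 74.1% and 80.4% of NKT alpha cells, against 19.6% and 20.2% of the others. The MAIT alpha, TRAV1 with TRAJ33, was found in no cell of either mouse (0 of 1820 and 0 of 2551, upper limits 0.165% and 0.118%). TRAV1 was used by 4 and 5 cells in all.

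CDR3 lengths had the same centre in both chains and both mice. The median was 14 amino acids for alpha and for beta in WT and in 564Igi. The mean of the alpha CDR3 was 13.52 (SD over cells 1.497) in WT and 13.51 (1.54) in 564Igi, and that of the beta CDR3 13.72 (1.46) and 13.69 (1.44). Lengths of 13 to 15 made up 73.2% and 74.6% of alpha and 71.4% and 70.8% of beta chains. Beta chains in cells with no alpha were of the same median length, 14, and so were both chains in cells with 2 alphas.

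Length differed by V gene. Among the 20 TRBV genes with at least 30 cells in both mice, TRBV1 (chr6:40891296-40891885) had the shortest beta CDR3s, with means of 12.1 in WT and 12.2 in 564Igi. TRBV20 followed with 13.1 and 12.8. TRBV2 (chr6:41047556-41047995) had means of 14.7 and 14.3 and TRBV5 of 14.5 and 14.4, the longest in WT and 564Igi respectively. Among the 12 TRAV families with that many cells, TRAV16 had the longest alpha CDR3s, at 14.9 and 14.8, and TRAV8 the shortest, at 12.94 and 12.98. Each of the 12 families and 20 genes differed by under 0.5 amino acids between the mice, and over the genes the means of WT and 564Igi had an r of 0.930 for TRBV and 0.958 for TRAV families, as a description.

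A minority of alpha CDR3s ended unusually. In 56 WT cells (3.08%) and 88 564Igi cells (3.45%) the alpha CDR3 as deposited did not end in phenylalanine or tryptophan. TRAJ7 (chr14:54211470-54211528) gave 27 and 46 of them, which is all but 1 of its chains in each mouse, and TRAJ44 (chr14:54173690-54173750) gave 24 and 37, all of its chains. Short alpha CDR3s of 8 amino acids or less, 14 in WT and 30 in 564Igi, came mostly from TRAJ44, with 13 and 26. An example from each mouse shows how short they were as deposited, with 6 amino acids each.
WT, TRAV7-5 with TRAJ44: tgtgcagcgggcattact
564Igi, TRAV14-3 with TRAJ44: tgtgcagcaagtcgaact
Both were read at 8 UMIs. Among alpha CDR3s that ended in phenylalanine or tryptophan, 0 of 1764 in WT had 8 amino acids or less. The shortest of these had 9 in WT and 7 in 564Igi, and the median stayed at 14 in both mice. Where the CDR3 of the other chains was taken to end is part of the deposited annotation, and whether that end is right was not tested.

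On average the 2 chains carried opposite net charge (lysine and arginine minus aspartate and glutamate). The mean net charge of the alpha CDR3 was 0.57 in WT and 0.62 in 564Igi, and that of the beta CDR3 was -0.74 and -0.75. Among cells with 1 alpha and 1 beta, the alpha net charge was 1 or more in 56.6% (54.3 to 58.9) in WT and 59.7% (57.7 to 61.6) in 564Igi. The beta net charge was 1 or more in 9.45% and 9.09%. A net charge of -1 or less was found in 10.5% and 10.7% of alphas and in 62.2% and 61.8% of betas. With both chains added, the mean was -0.17 (SD over cells 1.32) in WT and -0.14 (1.32) in 564Igi.

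Positive alpha CDR3s were more frequent in 564Igi by 3.01 percentage points (Newcombe interval 0.016 to 6.02), and neutral ones less frequent by 3.21 points (difference -3.21, -6.04 to -0.389). Without the NKT alpha the positive share differed by 2.84 points (-0.187 to 5.88), and with each clonotype counted once by 3.26 points (0.243 to 6.27). The positive share was higher in 564Igi in 8 of 12 TRAV families and lower in 4, and the exact intervals of the mice overlapped in all 12. TRAV8 (30.3% and 45.3%) and TRAV14 (54.6% and 63.9%) were among those higher in 564Igi, and TRAV9 (78.4% and 70.7%) and TRAV3 (63.8% and 56.4%) among those lower. In barcodes with no contig in the B cell table the positive shares were 56.0% in WT and 58.7% in 564Igi. In all, 22 shares of length, charge and composition were compared between the mice, and 4 intervals left out 0. The other 2 were a beta net charge of 2 or more, at 2.03% and 1.22%, and beta CDR3s with hydrophobic residues (alanine, cysteine, phenylalanine, isoleucine, leucine, methionine, valine, tryptophan or tyrosine) at both positions 6 and 7, at 2.42% and 3.53% (difference 1.11 points, 0.048 to 2.14). The first of these lost its interval without the WT clonotype of 7 cells (1.65% in WT, difference -0.44, -1.24 to 0.297). The second lost it without the NKT alpha (1.03 points, -0.046 to 2.06) and with each clonotype counted once (1.07 points, -0.001 to 2.10).

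**Figure D3:**
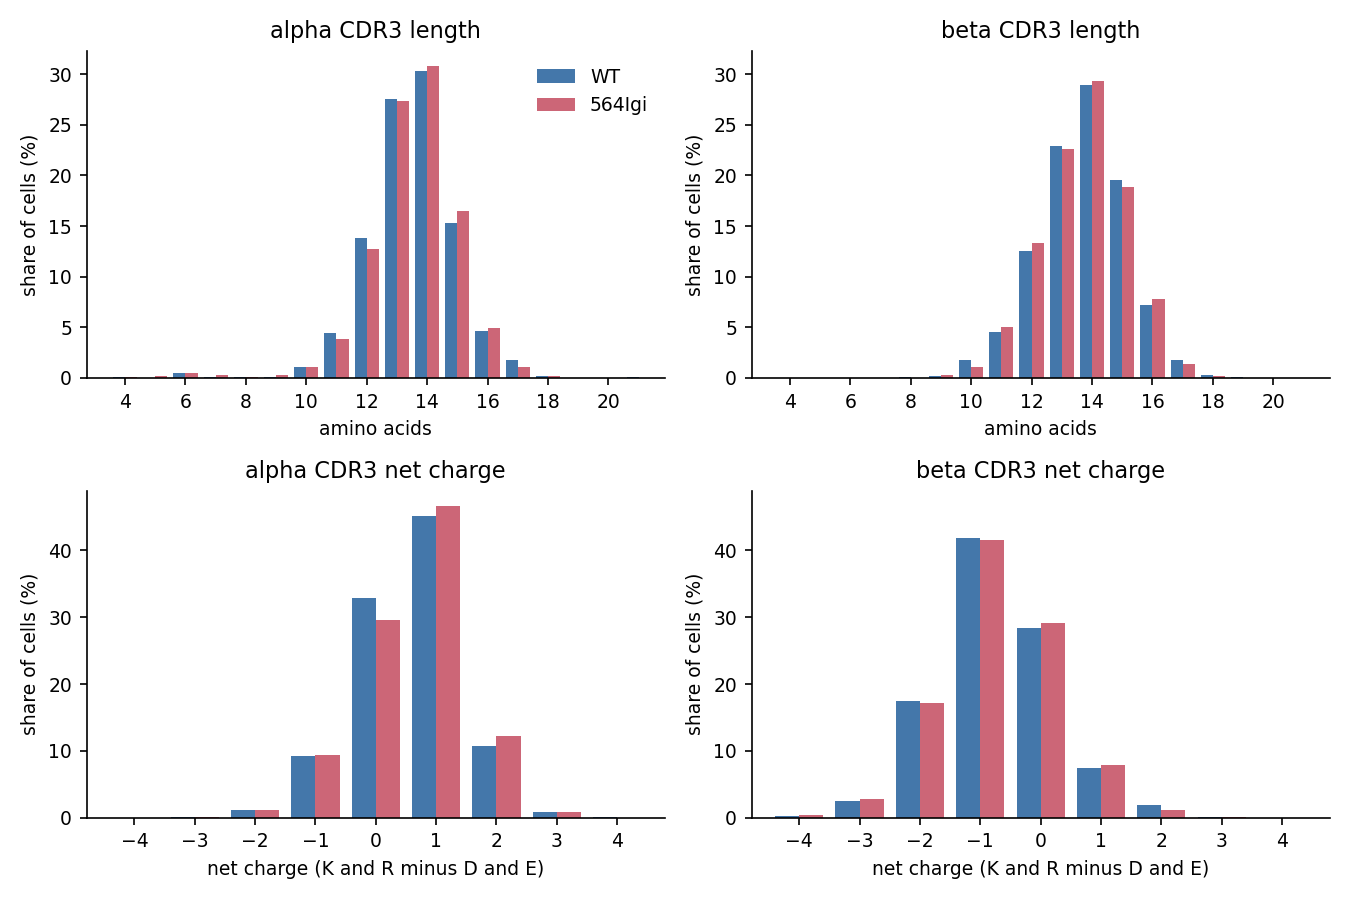
Share of cells (%) by CDR3 length in amino acids (top) and by CDR3 net charge (bottom) for alpha (left) and beta (right) chains of WT and 564Igi cells. Lengths centre on 14 in all 4 cases, alpha net charge centres on 1 and beta net charge on -1.

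Charge differed by gene segment. TRAV9 (78.4% positive in WT and 70.7% in 564Igi), TRAV10 (73.6% and 70.5%), TRAV5 (70.4% and 76.2%) and TRAV16 (69.7% and 70.9%) had the most positive alpha CDR3s, and TRAV4 (33.3% and 28.2%) and TRAV8 (30.3% and 45.3%) the fewest. Among TRAJ segments, TRAJ18 stood at 94.2% and 96.9% and TRAJ34 at 83.3% and 85.7%, whereas TRAJ33 stood at 10.7% and 7.69% and TRAJ22 at 10.9% and 13.3%. The TRAJ18 cells include the 27 WT and 51 564Igi cells of the NKT alpha, which were all positive. Among beta genes TRBV17 (32.1% and 31.3%) and TRBV20 (21.1% and 25.6%) had the most positive CDR3s. In WT 7 of the TRBV17 cells were 1 clonotype with a beta net charge of 2, and without it the WT share was 21.7%. The lowest were TRBV13-2 (0% of 35 cells, which allows up to 8.57%, and 3.23%), the compound name (2.03% and 3.83%), TRBV5 (2.48% and 3.27%) and TRBV2 (4.0% and 2.63%). TRBJ1-3, TRBJ1-4, TRBJ1-5, TRBJ1-6, TRBJ2-2 and TRBJ2-4 chains were positive in 17.7% to 27.1% of cells, and the other 6 TRBJ segments in 0% to 5.75%. The order was similar in both mice, with an r between WT and 564Igi of 0.895 over TRAV families, 0.905 over TRBV genes and 0.963 over TRBJ segments.

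**Figure D4:**
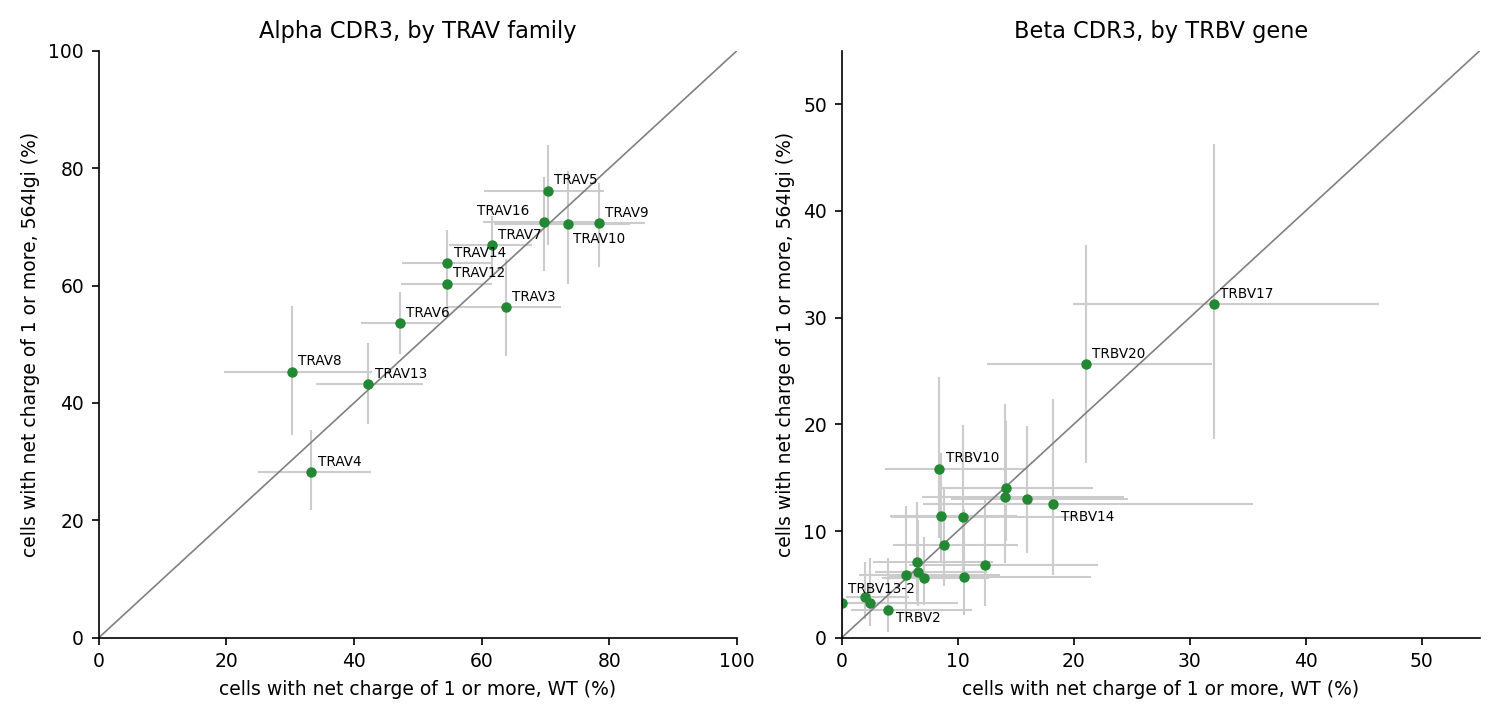
Share of cells (%) with a CDR3 net charge of 1 or more in WT (x axis) and 564Igi (y axis), for alpha by TRAV family (left) and beta by TRBV gene (right), with exact 95% intervals; genes with at least 30 cells in both mice, and the diagonal is equality. TRAV families span 28.2% to 78.4% and TRBV genes 0% to 32.1%, and the mice overlap for each.

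Within a cell, the CDR3s of the 2 chains were nearly unrelated. The Pearson r of alpha and beta length was 0.034 over 1820 WT cells and 0.010 over 2551 564Igi cells, and that of net charge was -0.040 and -0.030. Both chains were positive in 88 WT cells against 97.4 expected from the margins (ratio 0.903, 0.724 to 1.11) and in 139 564Igi cells against 138.4 (1.004, 0.844 to 1.19). Both were negative in 124 WT cells against 119.4 (1.04) and in 146 564Igi cells against 169.4 (0.862, 0.728 to 1.01). The 4 intervals include 1. The UMIs of the 2 chains, which share the droplet, had a Spearman rho of 0.172 and 0.157.

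Cells with 2 alphas and 1 beta, or with a beta only, served as the nearest comparison within each mouse. In cells with 2 alphas both were counted, 558 from 279 WT cells and 714 from 357 564Igi cells. The intervals treat the 2 alphas of a cell as independent. Over 66 shares compared, 5 intervals of the difference left out 0, and 2 of these concerned the same feature in both mice. Alpha CDR3s of 16 amino acids or more made up 6.65% of the alphas in WT cells with 1 alpha and 1 beta, against 10.4% of the alphas in cells with 2 (difference -3.75 points, -6.79 to -1.04). In 564Igi they made up 6.23%, against 9.52% (-3.29 points, -5.85 to -1.004). A cysteine after the first residue of the alpha CDR3 was present in 0.275% of these cells in WT and 0.235% in 564Igi, against 0.896% and 1.40% of the alphas in cells with 2. That difference was -0.62 points (-1.82 to 0.085) in WT and -1.17 points (-2.33 to -0.388) in 564Igi, so the interval left out 0 in 564Igi but not in WT. The positive share of alpha CDR3s was 58.2% and 58.1% in cells with 2 alphas. In 564Igi, beta CDR3s of 12 or less were more frequent than in cells with a beta only (19.8% against 16.8%) and those of 13 to 15 less frequent (70.8% against 74.5%), with intervals that left out 0. In WT both differences went the other way, 19.1% against 19.8% for the shorter lengths (-0.69 points, -4.25 to 2.72) and 71.4% against 70.6% for the middle ones (0.848 points, -3.08 to 4.89), with intervals that include 0.

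The beta chain was read at more UMIs than the alpha in most cells. The median ratio of beta to alpha UMIs was 2.50 (2.33 to 2.67) in WT and 2.43 (2.33 to 2.50) in 564Igi. It was above 1 in 84.6% of WT and 83.3% of 564Igi cells and below 1 in 10.9% of each. Counted in reads, the median ratio was 2.04 and 1.86, since alpha chains had more reads per UMI, with medians of 340 and 318 against 269 and 237 for beta.

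The ratio depended on the beta V gene. TRBV17 (chr6:41163092-41163556) had a median of 6.20 (5.00 to 8.67) in WT and 5.29 (4.17 to 7.33) in 564Igi. The WT median was 5.77 without the clonotype of 7 cells. TRBV15 (chr6:41141211-41141658) had 5.00 and 5.20, and TRBV16 3.80 and 3.40. At the other end TRBV2 had 1.0 (0.750 to 1.0) and 0.944 (0.750 to 1.0), and chains named TRBV13-2 alone had 1.40 and 1.58. That name alone covers 35 WT and 62 564Igi cells, against 148 and 235 under the compound name, which are not in these 2 values. Of 20 genes, 19 had medians above 1 in both mice, TRBV2 being the other. Alpha UMIs were 4 to 5 at the median whatever the TRBV gene, and beta UMIs ran from 4 for TRBV2 in both mice to 27 in WT and 22 in 564Igi. The same genes stood at the ends in cells with a beta and no alpha, with medians of 17 and 22 UMIs for TRBV17, 21 and 20 for TRBV15 and 4 and 4 for TRBV2. Over the 20 genes the ratios of WT and 564Igi had an r of 0.959, and the intervals of the mice overlapped for each. Within a mouse the ratio had an r of 0.014 and -0.007 with the median contig length of the gene. More RNA per cell and better capture or assembly of a V gene cannot be told apart in these tables. TRAV families differed less. TRAV16 was highest in both mice, at 4.0 and 3.21, with median alpha UMIs of 3. Without the WT clonotype of 7 cells, TRAV16 stood at 3.50 in WT. TRAV7 (2.0 and 2.20) and TRAV4 (2.17 and 1.80) were lowest in WT and 564Igi respectively.

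**Figure D5:**
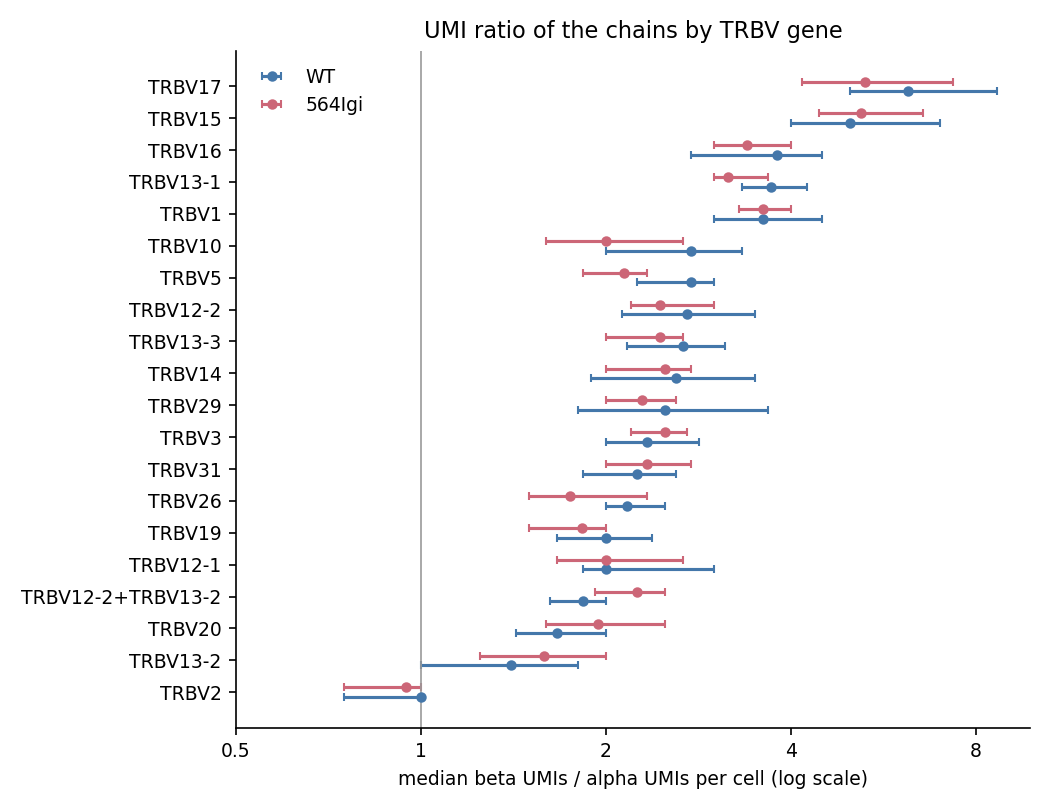
Median ratio of beta to alpha UMIs per cell, on a log axis, for each TRBV gene with at least 30 cells in both mice, with order-statistic 95% intervals; the line marks 1. TRBV17 and TRBV15 lie at 5.00 or above in both mice, and TRBV2 at or just under 1.

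Few cells shared a clonotype. WT had 1801 clonotypes and 564Igi 2535, and 12 and 10 of them held 2 or more cells, 31 cells (1.70%, 1.16 to 2.41) in WT and 26 cells (1.02%, 0.667 to 1.49) in 564Igi. The largest are shown with their alpha and beta CDR3.
WT, 7 cells, TRAV16N and TRAJ16: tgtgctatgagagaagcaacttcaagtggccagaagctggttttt
WT, 7 cells, TRBV17 and TRBJ2-2: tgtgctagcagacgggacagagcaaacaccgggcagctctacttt
564Igi, 6 cells, TRAV4D-4 and TRAJ11: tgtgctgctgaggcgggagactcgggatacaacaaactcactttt
564Igi, 6 cells, TRBV19 and TRBJ2-4: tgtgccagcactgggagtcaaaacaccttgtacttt
The WT clonotype carried a net charge of 1 in alpha and 2 in beta, with 2 to 4 alpha UMIs and 13 to 36 beta UMIs per cell. The 564Igi clonotype carried -1 and 0, with 6 to 18 alpha UMIs and 4 to 25 beta UMIs. Each mouse had 1 further clonotype of 4 cells, TRAV16N with TRBV12-2 in WT and TRAV12D-3 with TRBV5 in 564Igi. The other 10 and 8 clonotypes held 2 cells each.

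No clonotype was found in both mice, by nucleotides or by amino acids. Of 1755 distinct alpha CDR3 nucleotide sequences in WT and 2438 in 564Igi, 72 were in both mice, carried by 5.44% of WT and 5.14% of 564Igi cells. Of these 99 WT and 131 564Igi cells, 25 and 50 carried 1 of the 4 NKT alpha forms shown above. Of 1798 and 2527 distinct beta sequences, 7 were in both, carried by 0.440% and 0.274% of cells. Within a mouse 27 WT and 47 564Igi alpha sequences were found with more than 1 beta, or 23 and 43 without the NKT alpha. For beta, 3 and 7 sequences were found with more than 1 alpha. Outside the NKT alpha, the alpha sequence with most partners in WT had 4 in 4 cells, was assigned to TRAV3D-3 with TRAJ22 there, and was also found in 3 564Igi cells with 3 partners.
TRAV3 with TRAJ22: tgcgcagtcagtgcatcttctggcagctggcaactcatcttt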

How the data were processed

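The 4 V(D)J libraries of the series, a B cell and a T cell library for each of 2 mice, were used. Gene expression was not used. The deposited tables list assembled contigs with whole-number counts of reads and UMIs that the authors did not normalize, per the file headers. Cell Ranger 3.0.2 and the mm10 build stand in the submitters' processing notes, with no role. The T cell tables held 86409 UMIs and 30190690 reads in WT and 114433 and 32922893 in 564Igi. Called cells numbered 3608 and 4946, of which the 345 and 373 also called in the B cell table were left out as possible doublets; no doublet caller was run. Cell calls, confidence flags, gene names and CDR3s are the authors'.

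Expected cells of a pair were the product of the family's and gene's totals over all cells. Shares carry exact Clopper-Pearson 95% intervals, observed over expected counts exact Poisson intervals, medians order-statistic intervals and differences Newcombe intervals. For a count of 0 the upper limit is 3 counts of the total. With 1 mouse a group no test was made. Named genes were the 5 most used, up to 3 highest and lowest with at least 30 cells in both mice, those 1.5-fold apart between mice with at least 20 cells, pairs called the same way in both mice and up to 3 further highest per mouse, the 3 largest clonotypes (only 2 per mouse exceeded 2 cells), the most frequent chains, and the NKT and MAIT sets. TRAV9 and TRAV3 within the charge comparison, TRAV14 and TRAV8 there, the pairs that went opposite ways, and the dispersion terms were named after their values were seen. So were TRAV5D-4 and the pair of TRAV7 with TRBV5. Members and lists were chosen with earlier results of these data known. The pair statistics were tested on simulated independent chains, with and without 5 pairs set at 3-fold above the product. Smaller excesses and pairs set below the product were not simulated. Coordinates come from a RefSeq table of GRCm38.p6, in which 125 of 126 gene names matched. Software: Python 3.11.15 with SciPy 1.17.1, NumPy 2.4.6, pandas 2.3.3; plots by matplotlib 3.10.9.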

Additional observations from a re-analysis of the deposited data

Results flagged for a closer look

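In the B cell library of the 564Igi mouse, used here only to leave out barcodes called B cells and in an alternative, a productive heavy chain contig was listed under 18.1% of the barcodes with 1 alpha and 1 beta, against 0.110% in WT.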

How the results depend on the processing

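Of 176 values recomputed under alternatives, 121 stayed within the interval of the reported value (for counts of pairs, within 1.5 times) and 55 did not. CDR3 lengths and the share of positive alpha CDR3s stayed within theirs under every alternative run. The share of T cells with 1 alpha and 1 beta was 64.3% in WT and 64.4% in 564Igi with 1 UMI allowed, and 26.0% and 26.5% at 5 UMIs. It was 54.0% in 564Igi without barcodes that had any contig in the B cell table, and 60.2% and 58.2% after cells were thinned to 10 UMIs (66.6% and 66.2% unthinned in the same cells), which left out 975 and 1383 cells. The median UMI ratio was 3.0 and 2.67 with 1 UMI allowed, 1.80 and 1.83 at 5 UMIs, 3.40 and 3.40 in cells of at least 20 UMIs over both chains, and 2.04 and 1.86 in reads. Dispersion was 1.04 in WT and 0.981 in 564Igi at 5 UMIs, where 10 and 17 TRAV11 cells fell under the 20 needed to enter. It was 1.19 and 1.36 without barcodes with any B cell contig, where 17 TRAV11 cells in WT fell under that number and 33 in 564Igi did not, 1.15 and 1.23 by TRAV gene, 1.34 and 1.06 without the NKT alpha, and 1.26 and 1.02 with each clonotype also counted once.

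Pairs above the product numbered 7 in 564Igi with 1 UMI allowed and 5 with barcodes called in both tables kept; in WT they numbered 3 at 5 UMIs (45 pairs compared) and 6 without barcodes with any B cell contig (63 compared). Pairs below numbered 6 and 3 at 5 UMIs and 16 and 9 without those barcodes, in WT and 564Igi. By TRAV gene, with 11 pairs compared, 1 and 1 were above and 4 and 3 below. With 10 cells expected, 2 and 0 of 47 were above and 6 and 2 below. With 3 expected, of 205 pairs 10 were above in 564Igi, and 41 and 29 below. At 2-fold 0 and 0 were above and 10 and 6 below, and under the smaller fold tried 36 and 27 above and 47 and 29 below. Positive beta CDR3s were 11.3% and 10.8% with histidine counted, and cells in repeated clonotypes were 0.545% in 564Igi without barcodes with any B cell contig. The cause was not tested where fewer cells or pairs do not give it. No paired analysis was possible because each group was 1 mouse. The thinning, the F or W ending, the compound name, the largest clonotype and the joint removal were chosen after seeing the data. The alpha chain was read at a median of 4 UMIs, which limits the precision of its calls.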
